A study of Mus musculus with 4 samples.

Results

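The cells described here are the mesenchyme of the distal autopod, the future foot plate, in the hindlimb bud of C57BL/6 mouse embryos at embryonic day 11.5 (E11.5). They were picked from 1 droplet single-cell RNA-sequencing library by their transcript counts. A cell was taken when its unique molecular identifiers (UMIs, each standing for 1 captured transcript) for Hoxa13 and Hoxd13 summed to at least 2, when it held no UMI of Cdh5, Pecam1, Epcam or Fcer1g, and when it did not hold both at least 2 Sox9 and at least 3 Col2a1 UMIs, the mark of a precartilage cell. This gave 330 of 2640 kept cells at E11.5, or 12.5% (exact Clopper-Pearson interval 11.3 to 13.8%, 95%), and the series as a whole kept 9958 cells in 4 libraries. The library was made from the pooled hindlimbs of 1 litter. The tissue was dissociated with enzymes (collagenase and pronase), the cells were frozen, and dead cells were taken out after thawing, before capture with 10x Chromium 3' version 2 chemistry. The other 3 libraries, from E13.5, E15.5 and E18.5 hindlimbs of the same strain, were prepared alike and are used only where the rule was applied to them. The labels name no mutant, transgene or treatment, and every stage is 1 library, so no comparison below has a replicate or a p-value.

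The autopod is the last limb segment to form. Under signals from the apical ridge and the posterior margin, mesenchyme at the tip of the bud keeps growing while cells left behind condense into cartilage, and the HOX13 proteins, the most 5' members of the HoxA and HoxD clusters, mark and specify the hand and foot. In that territory the HoxD genes come under the control of enhancers on the centromeric side of the cluster, and HOXA13 and HOXD13 are known to act against the proximal Hox programme, Hoxa11 included.

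The 3 genes whose upstream windows follow lie near Hoxa13 or Hoxd13, and each was higher in the distal cells. Of the genes whose windows were read, they are the ones that held the 7 letters marked below. Hottip is a long noncoding RNA read from the 5' end of HoxA, Evx1 a homeobox gene beyond it, and Evx2 its counterpart beyond Hoxd13. The windows hold the 250 bases before the annotated start, 5' to 3' on the strand of the gene (RefSeq, GRCm38.p6): Hottip at chr6:52262525-52262774 on the plus strand, Evx1 at chr6:52313248-52313497 on the plus strand and Evx2 at chr2:74659558-74659807 on the minus strand. Capitals mark the 7 letters CAATAAA, the core of the sequence that HOX13 proteins are known to bind.
Hottip: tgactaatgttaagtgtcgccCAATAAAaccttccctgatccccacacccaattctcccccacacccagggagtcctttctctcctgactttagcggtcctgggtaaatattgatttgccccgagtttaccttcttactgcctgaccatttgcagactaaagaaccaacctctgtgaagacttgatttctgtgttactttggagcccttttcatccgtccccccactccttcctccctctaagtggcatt
Evx1: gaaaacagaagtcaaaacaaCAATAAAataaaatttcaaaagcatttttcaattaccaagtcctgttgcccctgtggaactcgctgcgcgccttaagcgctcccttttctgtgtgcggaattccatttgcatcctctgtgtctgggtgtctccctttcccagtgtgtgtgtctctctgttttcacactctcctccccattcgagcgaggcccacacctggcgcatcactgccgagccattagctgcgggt
Evx2: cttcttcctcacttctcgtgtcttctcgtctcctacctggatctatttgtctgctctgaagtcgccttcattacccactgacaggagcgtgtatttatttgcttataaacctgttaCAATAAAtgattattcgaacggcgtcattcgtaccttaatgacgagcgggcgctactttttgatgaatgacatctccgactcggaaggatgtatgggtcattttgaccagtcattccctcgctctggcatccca
The match began 229 bases before the start in Hottip, 230 in Evx1 and 134 in Evx2. CAATAAA or its reverse complement TTTATTG occurred in 1381 of the 32851 windows of this length in the table (4.20%), and no window of Hoxa13, Hoxd13, Hoxd12, Hoxd11, Hoxa11, Tfap2b, Lhx2 or Evx1os held either. The letters were chosen after these windows had been read, and a match describes the sequence only.

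The selection itself read as follows. Hoxd13 ran from 0 to 26 UMIs per cell with a median of 4 and was found in 317 of the 330 cells (96.1%). Hoxa13 ran from 0 to 6 with a median of 1 and was found in 174 (52.7%), so 161 cells held both genes, 156 only Hoxd13 and 13 only Hoxa13. The sum of both genes had a median of 5 and a highest value of 28. At the limit, 81 chosen cells stood at exactly 2 UMIs and 114 cells that passed the other conditions stood just outside it, at 1. The exclusions mattered: of 443 kept cells with at least 2 Hox13 UMIs, 51 held Cdh5 or Pecam1, 48 held Epcam, 6 held Fcer1g and 19 were precartilage cells, with some cells in several of these classes.

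The comparison set was given with the rule and consisted of all 1203 other E11.5 cells with at least 1 UMI of Prrx1, a homeobox gene of limb mesenchyme. It is not purely mesenchyme or purely proximal. It held 182 cells with Cdh5 or Pecam1, 173 with Epcam, 22 with Fcer1g, 222 precartilage cells and 92 cells with at least 2 Hox13 UMIs. Values are therefore also given against the 681 of these cells that pass the same exclusions as the distal cells, called the matched cells here. The distal cells were the deeper set, with a median of 11372.5 UMIs per cell (lowest 3160, highest 39907) and 3696 genes, against 9029 UMIs and 3299 genes in the 1203 cells and 7987 UMIs in the matched cells. Depth moved with the rule, which found 181 cells when every cell was first thinned to 4000 UMIs. Of the E11.5 barcodes 36 also occurred in a later library, 5 of them among the distal cells, and doublets were not removed.

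Levels are UMIs summed over the cells of a set and scaled to a total of 1000000 for that set (CPM, globin genes left out of the total). Each ratio has an exact 95% interval that covers counting error only and treats UMIs as independent, so it is too narrow where few cells hold most UMIs. A gene is called higher or lower when the ratio was at least 2-fold, the whole interval lay on that side of 1 and both sets together held at least 20 UMIs. By this size rule 146 of 12280 measured genes were higher in the distal cells (1.19%) and 919 were lower (7.48%), with the median gene at -0.05 on the log2 scale. Against the 589 matched cells that held no UMI of either gene 190 genes were higher (1.72%) and 571 lower (5.15%). Against all matched cells 166 of 11216 genes were higher (1.48%) and 534 lower (4.76%). Of the higher calls 111 were shared, which is 76.0% of the first list and 66.9% of the second. Of the lower calls 432 were shared, 47.0% of the first and 80.9% of the second.

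**Figure D1:**
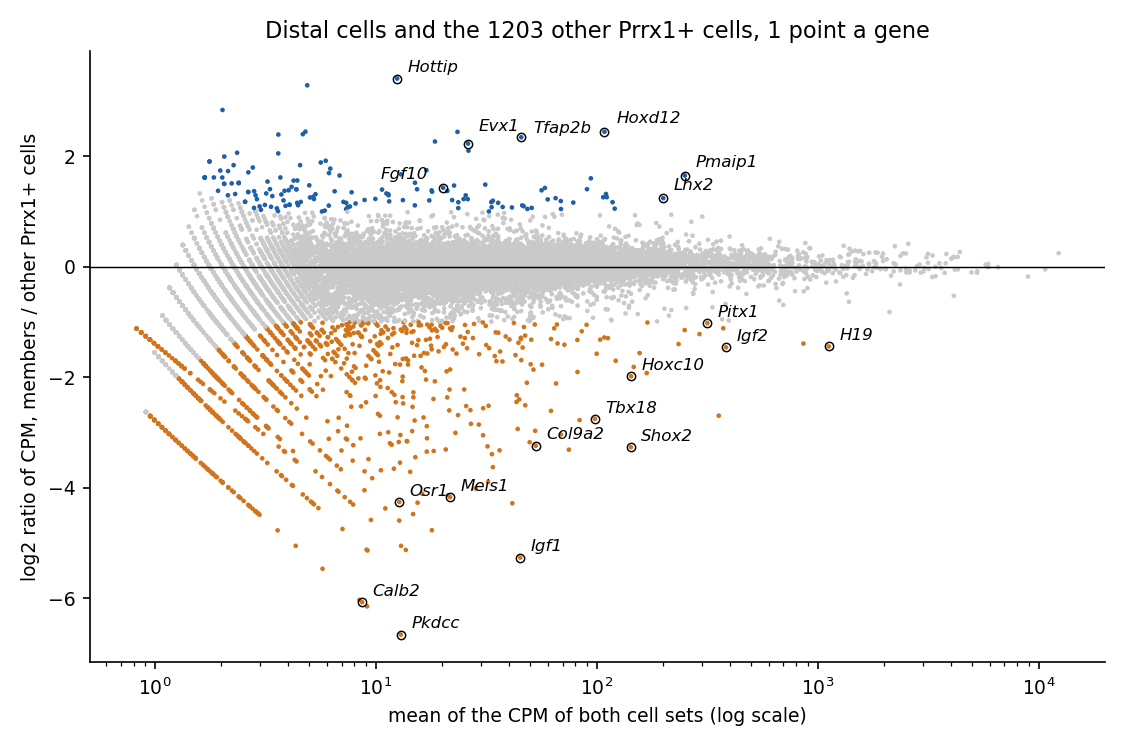
Every measured gene outside the selection rule, with its mean CPM over both sets (x axis, log scale) and the log2 ratio of CPM of the 330 distal cells over the 1203 other Prrx1+ cells (y axis). Blue points are called higher and orange points lower; Hottip, Hoxd12 and Tfap2b stand at the top and Pkdcc, Calb2 and Igf1 at the bottom.

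The markers given with the label were read next. Lhx2, a LIM-homeobox gene of distal mesenchyme that relays ridge signals, is the most abundant marker that the rule did not read. It summed to 1109 UMIs in the distal cells (281 CPM) and 1438 in the other Prrx1+ cells (119 CPM), 2.37-fold higher (2.19 to 2.56), and 2.25-fold above the matched cells (2.05 to 2.48). Evx1 summed to 170 UMIs against 111, or 43.1 against 9.16 CPM, 4.71-fold higher (3.68 to 6.03). It lies near the rule gene Hoxa13, so its value is a description. Prrx1, which the rule read only in the comparison set, was found in 286 of the 330 cells (86.7%) and not in the other 44, whose median depth was 7801 UMIs. Its level went the other way from Lhx2 and Evx1, at 287.5 CPM in the distal cells and 573 CPM in the other cells, which were chosen for holding Prrx1. With every cell thinned to 4000 UMIs, Lhx2 was found in 55.5% of the distal cells, 24.9% of the other Prrx1+ cells and 2.33% of 343 endothelial cells, taken as the background of free RNA. The endothelial cells were those with at least 3 Cdh5 plus Pecam1 UMIs and no Prrx1, with a median of 10677.5 UMIs before thinning.

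In the HoxD cluster the ratio climbed from Hoxd9 gene by gene toward the 5' end. Hoxd9 summed to 90 UMIs in the distal cells and 940 in the other Prrx1+ cells, 22.8 against 77.6 CPM, 3.40-fold lower (2.74 to 4.27). Hoxd10 was near even at 55.8 and 44.8 CPM (1.24-fold, 1.06 to 1.46). Hoxd11 stood at 157 against 65.3 CPM, 2.40-fold higher (2.16 to 2.67). Hoxd12, the closest neighbour of Hoxd13 within the cluster, stood at 183 against 33.6 CPM from 722 and 407 UMIs, 5.45-fold higher (4.82 to 6.17), and 7.57-fold above the matched cells (6.32 to 9.13). Hoxd8 was lower as well, at 10 against 76 UMIs (2.47-fold, 1.27 to 5.37). The thinned share of cells with Hoxd12 was 43.3% in the distal cells, 8.57% in the other Prrx1+ cells and 0.875% in endothelial cells. Neighbouring values from Hoxd9 to Hoxd12 differed by more than their counting intervals.

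The HoxA cluster did not show such a slope. The distal cells were chosen mostly through Hoxd13, with 1529 UMIs against 279 of Hoxa13. The climb toward Hoxd13 and the contrast between the clusters are therefore a description only. Hoxa9 (137 against 141 CPM, log2 ratio -0.05), Hoxa10 (419.6 against 476 CPM, -0.18), Hoxa7 (0.02) and Hoxa5 (0.09) were near even, and Hoxa11, which is needed for the middle limb segment, was 2.62-fold lower (2.20 to 3.13) at 36.8 against 96.2 CPM. Hoxa11os, the antisense transcript of Hoxa11, went the other way at 342 against 194 CPM, 1.76-fold higher (1.65 to 1.88), which is below the 2-fold limit. Hoxa11 and Hoxa11os overlap on opposite strands, and the sources used here do not state how reads of overlapping genes were assigned, so both values are uncertain. Over the 16 measured HoxA and HoxD genes outside the rule 2 were higher and 3 lower, with a median log2 ratio of -0.02.

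**Figure D2:**
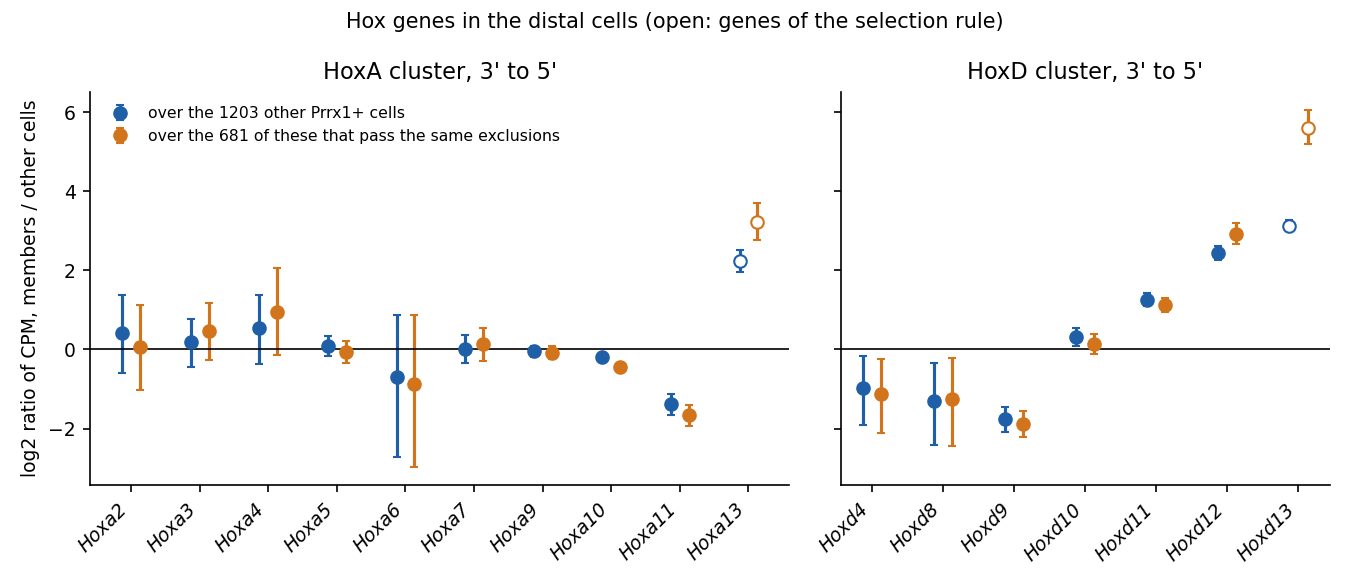
Log2 ratio of CPM of the distal cells over the other Prrx1+ cells (blue) and over the matched cells (orange), with 95% counting intervals. Drawn are the HoxA genes from Hoxa2 to Hoxa13 and the HoxD genes from Hoxd4 to Hoxd13. Open points are the 2 genes of the selection rule; from Hoxd9 to Hoxd12 the blue points climb from -1.77 to 2.45, while the blue points from Hoxa2 to Hoxa10 lie between -0.70 and 0.54 and Hoxa11 at -1.39.

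Some genes beside the 5' ends of both clusters were higher. Of 10 measured neighbours 4 passed the limit, namely Hottip, Evx1, Evx2 and Lnp, 6 did not and 0 were lower, and the median log2 ratio was 0.88. Against the matched cells Hibadh passed the limit as well and Hotair was lower (5 and 1 of 10, median 0.98). Hottip, at chromosome 6, 52262775 to 52267603 on the plus strand, summed to 90 UMIs in 80 distal cells and to 26 in the other Prrx1+ cells, 22.8 against 2.15 CPM, 10.6-fold higher (6.81 to 17.1). The matched cells held 6 Hottip UMIs, a 22.5-fold difference (9.94 to 62.9). Evx2 summed to 32 against 18 UMIs, 5.46-fold higher (2.97 to 10.3), and the matched cells held 1. Outside that list, the transcript named 5730457N03Rik, which RefSeq calls Evx1os, summed to 156 against 88 UMIs, 5.45-fold higher (4.17 to 7.16), but it overlaps Evx1 on the other strand, so reads of the pair cannot be told apart with certainty. Lnp, which lies beyond Evx2, was 2.33-fold higher (2.02 to 2.70), and Atf2 and Mtx2, farther out on either side, were at 1.33-fold and 1.08-fold. Hoxa13 and Hoxd13 chose the cells, so the values of their direct neighbours are given as a description.

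Transcription factors and signals of distal outgrowth had the highest median of the lists with more than 2 measured genes. Of 19 such genes 10 were higher and 1 lower, at a median log2 ratio of 1.17 (11 higher and 1 lower, 1.30, against the matched cells), beside a median of -0.05 over all genes. Tfap2b, an AP-2 family factor, was found in 128 distal cells and summed to 300 UMIs (76.1 CPM) against 181 (14.9 CPM), 5.09-fold higher (4.22 to 6.16). The matched cells held 19 Tfap2b UMIs, so that ratio was 23.7 (14.9 to 39.9), the highest among genes with at least 100 UMIs. Its relatives Tfap2a (2.25-fold, 1.85 to 2.74) and Tfap2c (2.65-fold, 1.97 to 3.56) were higher too. Lmo2, a LIM-only cofactor, stood at 131 CPM in the distal cells, 49.4 in the other Prrx1+ cells and 6.80-fold above the matched cells (5.54 to 8.41). Lmo2 is also an endothelial gene, and the endothelial cells of this library stood at 377 CPM. Sall3 (2.45-fold), Sall4 (2.31-fold) and Sp9 (3.25-fold) were higher, while the zinc-finger gene Sall1 (1.64-fold), Msx1 (1.88-fold), Lhx9 (1.23-fold) and Msx2 (1.20-fold) stayed below the limit. The exception was Dlx5, at 35 against 244 UMIs, 2.27-fold lower (1.59 to 3.33).

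Among secreted signals, Fgf10, the mesenchymal ligand that maintains the apical ridge, was 2.70-fold higher (2.09 to 3.49) at 29.4 against 10.9 CPM. Etv4, a transcriptional target of FGF signalling, was 2.24-fold higher (1.97 to 2.54), and its relative Etv5 reached 1.88-fold against the other Prrx1+ cells and 2.15-fold (1.81 to 2.55) against the matched cells. Dusp6 and Spry1, feedback inhibitors of the same pathway, were at log2 ratios of -0.13 and -0.30. Receptor genes pointed down: Fgfr2 was 3.22-fold lower (2.15 to 5.02), Fgfr3 2.69-fold lower (1.73 to 4.40, but under the limit at 1.97-fold against the matched cells) and Fgfr1 1.43-fold lower, below the limit. In all, 2 of 16 measured FGF genes were higher and 4 lower, among them Fgf8, a ridge gene that held 4 UMIs in the distal cells, and Fgf9. The balance turned against the matched cells, with 4 of 15 higher and 2 lower. The list median was near even both times, at log2 ratios of 0.08 and 0.13.

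Jag1, a Notch ligand, was 2.88-fold higher (2.13 to 3.89) from 88 and 94 UMIs, and Hey1, a Notch target, 2.5-fold higher (2.24 to 2.78) at 157 against 63.0 CPM. The other Notch genes did not follow, with 2 of 12 higher, 2 lower and a median of -0.39. In the WNT list 1 of 29 genes was higher, the receptor gene Fzd10 (2.25-fold, 1.78 to 2.84), and 5 were lower, led by the ligand inhibitors Sfrp1 (5.68-fold, 4.34 to 7.58) and Sfrp2 (2.64-fold, 2.40 to 2.90). Wnt5a, which guides outgrowth along the limb axis, stood at 136 against 71.1 CPM, 1.91-fold higher. The BMP list was nearly level, with 0 of 23 higher and 1 lower. Aldh1a2, which makes retinoic acid, was 2.29-fold higher (1.89 to 2.79) but 1.66-fold (1.34 to 2.06) against the matched cells, and Cdh3, which codes for P-cadherin, was 2.69-fold higher (2.32 to 3.13).

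Posterior genes were present in part of the set. Shh, the ligand of the polarizing region, summed to 31 UMIs in 20 distal cells and to 18 in the other Prrx1+ cells, 5.29-fold higher (2.87 to 10.0). Hand2, which acts upstream of Shh, was found in 17 of those 20 cells and in 224 of all 330 (67.9%), but after thinning in 2 of 8 cells with Shh and in 36.2% of all. No link between the genes can be read from so few cells. Hand2 itself was 1.42-fold higher (1.27 to 1.58), below the limit. Gli1, a target of the hedgehog pathway, was 2.09-fold higher (1.66 to 2.64) at 31.9 against 15.3 CPM. Ptch1, another target, summed to only 7 and 33 UMIs. Of 16 measured posterior and hedgehog genes 2 were higher and 3 lower, with the list median near even at 0.04. Against the matched cells 2 of 15 were higher and 3 lower, and the median was -0.42. Anterior factors leaned down, with 0 of 11 higher and 6 lower and a median of -1.04 (0 and 8 of 11, median -1.39, against the matched cells). The lower genes include Irx3 and Irx5, which the proximal list below also holds. Pax9 was 4.83-fold lower (3.07 to 8.03) and Alx4 4.45-fold lower (1.42 to 22.5), whereas Zic2 was 1.84-fold higher and Gli3 near even (log2 ratio 0.10).

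Proximal limb factors were low throughout, apart from Hoxa9, Pbx2 and Pbx3, which did not pass the limit. Of 16 measured proximal factors 13 were lower and 0 higher, with a median log2 ratio of -2.43 (12 of 15 lower, -2.53, against the matched cells). Meis1, a homeobox cofactor that marks the stylopod, summed to 9 UMIs in 6 distal cells (2.28 CPM) against 498 UMIs (41.1 CPM), 18-fold lower (9.41 to 39.6). That level was below the 6.06 CPM of endothelial cells in the same library. Meis2 summed to 40 UMIs (10.1 CPM, beside 9.32 in endothelial cells) against 940 (77.6 CPM), 7.65-fold lower (5.57 to 10.8). Shox2, required for the proximal skeleton, stood at 26.9 against 258 CPM, 9.61-fold lower (7.92 to 11.8), with Irx3 10.1-fold lower (5.83 to 19.1), Irx5 8.94-fold lower (4.92 to 18.1) and Tbx18 6.74-fold lower (5.51 to 8.32). Pbx2, which codes for a Meis partner, stood near even at a log2 ratio of -0.16. Pkdcc, a secreted kinase of skeletal growth, gave the widest gap of any gene with at least 100 UMIs, with 1 UMI against 311 (ratio 101, interval 18 to 4011).

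Hindlimb identity genes and the other Hox clusters leaned the same way. Pitx1, the hindlimb selector gene, was still found in 52.5% of thinned distal cells, but at 209 against 424 CPM it was 2.03-fold lower (1.88 to 2.18). Tbx4 was even at 12.7 and 12.8 CPM, and Isl1 stood at 15.5 against 18.3 CPM. Hoxc10 summed to 228 UMIs against 2765, 57.8 against 228 CPM, 3.95-fold lower (3.45 to 4.54). Of 14 measured HoxB and HoxC genes 13 were lower and 0 higher, with a median of -1.77. Hoxc8 was 5.25-fold lower (3.45 to 8.39) and Hoxc11 2.10-fold lower (1.55 to 2.88). Against the matched cells 9 of 10 were lower.

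**Figure D3:**
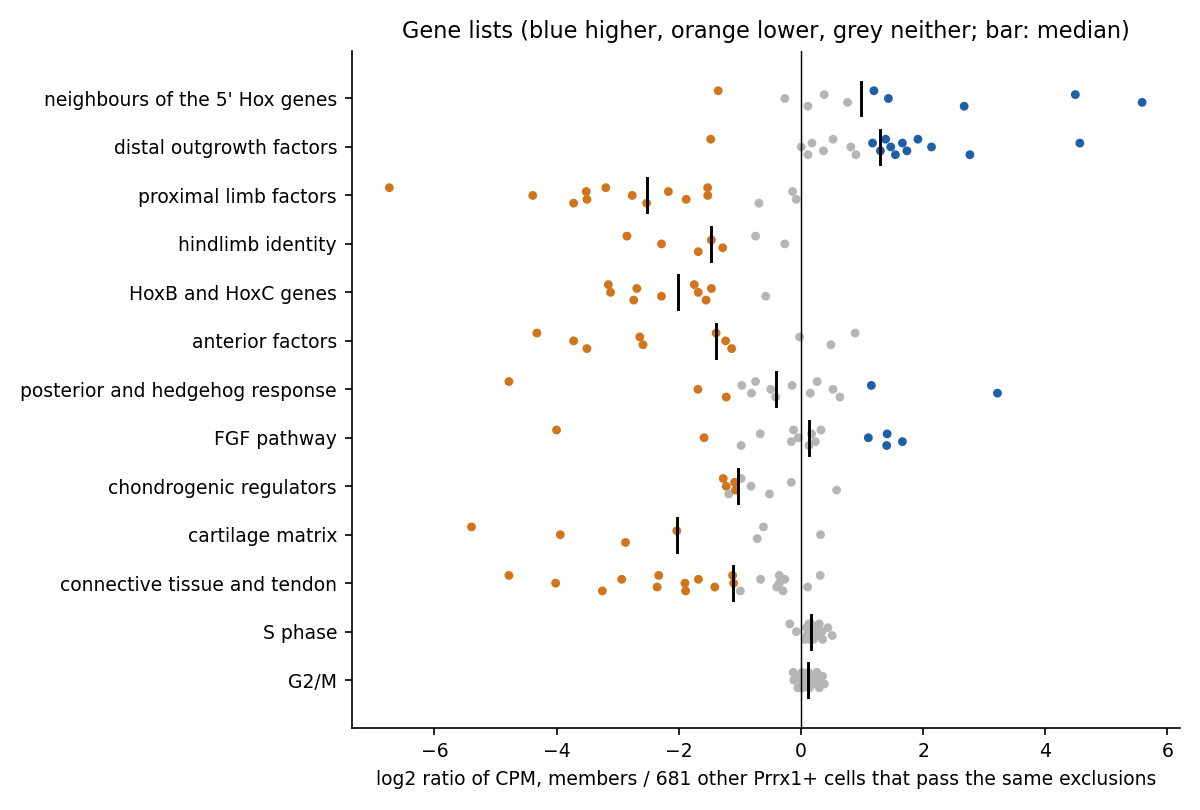
Log2 ratio of CPM of the distal cells over the 681 matched cells for every measured gene of 13 lists, 1 point a gene, with the list median as a bar. The medians run from -2.53 for proximal limb factors, -2.03 for cartilage matrix and -2.01 for HoxB and HoxC genes to 1.30 for distal outgrowth factors. The 40 genes of the S phase and G2/M lists lie near 0.

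In the connective tissue and tendon list 10 of 23 genes were lower and 0 higher (12 of 21 lower against the matched cells), so 13 of the 23 did not pass. Osr1 summed to 5 against 294 UMIs (19.1-fold lower, 8.11 to 59.4), Osr2 stood at 15.0 against 123 CPM (8.20-fold lower, 6.32 to 10.8), and Scx, the tendon progenitor factor, at 17.5 against 57.4 CPM (3.28-fold lower, 2.56 to 4.26). The fibrillar collagen genes Col1a1, Col1a2 and Col3a1 were 2.5-fold, 2.95-fold and 3.79-fold lower. The rule removed only cells with both Sox9 and Col2a1, and among cartilage matrix genes it did not read, 7 of 9 were lower against the full set and 4 of 7 against the matched cells. Col9a2 was 9.44-fold lower (6.89 to 13.3) against the first and 7.32-fold lower (5.29 to 10.4) against the second. Sox9 itself, a rule gene, was found in 247 of the 330 cells with a median of 2 UMIs and a highest of 24, while Col2a1 had a median of 0 and a highest of 5.

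Of 12 measured genes of the growth list 2 were lower and 0 higher, with a list median of -0.15. H19, the imprinted noncoding RNA, stood at 604 CPM in the distal cells and 1640 CPM in the other Prrx1+ cells, 2.71-fold lower (2.60 to 2.83), and the imprinted growth factor Igf2 next to it at 205 against 564 CPM, 2.74-fold lower (2.55 to 2.96). Endothelial cells of the library held 1832 CPM of H19. Igf1 summed to 9 UMIs in 6 distal cells against 1064, 38.5-fold lower (20.2 to 84.4). The other 10 measured genes of the growth list, Lin28b, Hmga2 and Igf2bp1 among them, did not pass the limit. None of the 20 S phase and none of the 20 G2/M genes passed it either, with medians of 0.28 and 0.00, and Mki67 was found in 31.0% of thinned distal cells. Glycolytic genes were level as well, with 0 of 20 higher and 2 lower.

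The remaining genes with the highest ratios had mixed roles. Pcsk6, a proprotein convertase that processes TGF-beta family ligands, was 4.83-fold higher (3.60 to 6.51) and Cbln1, a secreted protein best known as a synaptic organiser, 4.30-fold higher (3.38 to 5.48). Ngfr, a neurotrophin receptor, was 3.37-fold higher (2.52 to 4.50), and it made up 26.1 of the 34.5 CPM that the neural crest and Schwann list summed to in the distal cells. Pmaip1, which codes for the apoptosis protein Noxa, stood at 379.8 against 121 CPM, 3.15-fold higher (2.93 to 3.39), and was found in 61.0% of thinned distal cells, 22.1% of the other Prrx1+ cells and 3.79% of endothelial cells. Slc25a33, a mitochondrial pyrimidine carrier, was 3.04-fold higher (2.70 to 3.42), Sulf1, an extracellular heparan sulfatase, 2.81-fold (2.29 to 3.45), Naaa 3.20-fold (2.3 to 4.45) and Ccdc109b, a subunit of the mitochondrial calcium channel, 2.78-fold (2.17 to 3.54). Against the matched cells Tspan18, Stmn2 and Ctsc also entered the first 15, at 5.79-fold, 4.31-fold and 3.70-fold. Tspan18 and Stmn2 were found in 58.3% and 16.6% of thinned endothelial cells.

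At the low end, Calb2 and Rarres1 held 1 UMI each against 207 and 201, and Agtr2, an angiotensin receptor gene, 2 against 216. Calb2 was found in only 1.41% of thinned comparison cells, so its UMIs come from few cells. Lect1 and Matn4, both made by cartilage, held 1 and 3 UMIs against 218 and 306. Pde2a, Tmem255a, Flt1, Gimap4, Aplnr and Icam2 also led the lower genes, and all 6 had under 20 UMIs in the pair once cells with endothelial, epithelial or macrophage transcripts were left out of the comparison set. Among matched cells the lower genes were led, besides Pkdcc, Calb2, Rarres1 and Igf1, among others by the muscle actin gene Actc1, Agtr2, Osr1, the protocadherin gene Pcdh10 (23.8-fold, 7.92 to 117), Meis1, Fibin (17.1-fold, 10.4 to 30.2), Dcn (16.2-fold, 6.11 to 60.5), Fgf9 and Tox (15.1-fold, 7.18 to 38.3). Actc1 was found in 0.481% of thinned matched cells, again few.

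Markers of other cell types were measured in the same sets. The 10 endothelial markers outside the rule summed to 56.5 CPM in the distal cells, 50.04 in the matched cells and 359 in the full comparison set, with at most 8, 6 and 240 UMIs in any cell. The 13 epithelial markers summed to 37.3, 66.8 and 291 CPM, and Wnt7a was at 0 in the distal cells. Macrophage markers summed to 5.07, 7.94 and 39.5 CPM, with Tyrobp, C1qa, Ptprc, Mrc1 and Cx3cr1 at 0, and muscle progenitor markers to 2.28, 25.7 and 25.01 CPM, with Pax7, Myf5, Myf6, Myog and Msc at 0. Of the 10 endothelial markers 9 were lower against the full set and 0 of 6 against the matched cells. The part that such cells take in the other lower calls against the full set was not tested beyond the matched comparison.

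Levels were then read by the number of Hox13 UMIs across the limit of the rule. This is the same count that chose the cells, so the values are a description and no separate support. Among Prrx1+ cells that pass the exclusions, 589 held none, 92 held 1, 63 held 2, 40 held 3, 64 held 4 to 5 and 119 held 6 or more. Median depth moved with the count, from 7828 UMIs in the first group to 14240 in the last, and CPM is scaled to it. Hoxd12 stood at 18.5, 53.4, 94.9, 125, 139 and 238 CPM over these groups, so the cells with 1 Hox13 UMI lay between those with none and those with 2. Tfap2b stood at 2.62, 6.28, 13.1, 45.04, 56.4 and 113 CPM. Lmo2 stood at 10.9, 62.8, 101, 160.2, 111 and 151 CPM, with no steady order from 3 UMIs on. Lhx2 stood at 107 and 215 CPM below the limit and 286, 203, 272 and 333 CPM above it. Shox2 was low from the limit on, at 348, 93.1, 32.1, 32.5, 35.7 and 25.6 CPM, and Meis1 at 55.04, 10.46, 4.38, 0, 0 and 1.14 CPM. H19 stepped down throughout, at 1864, 1316, 1176, 631, 510.1 and 380.4 CPM. Mki67 stayed between 78.8 and 100.5 CPM. Asb4, of the anterior list, went down from 604 to 207 CPM, whereas Hand2 moved only between 104 and 145 CPM.

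**Figure D4:**
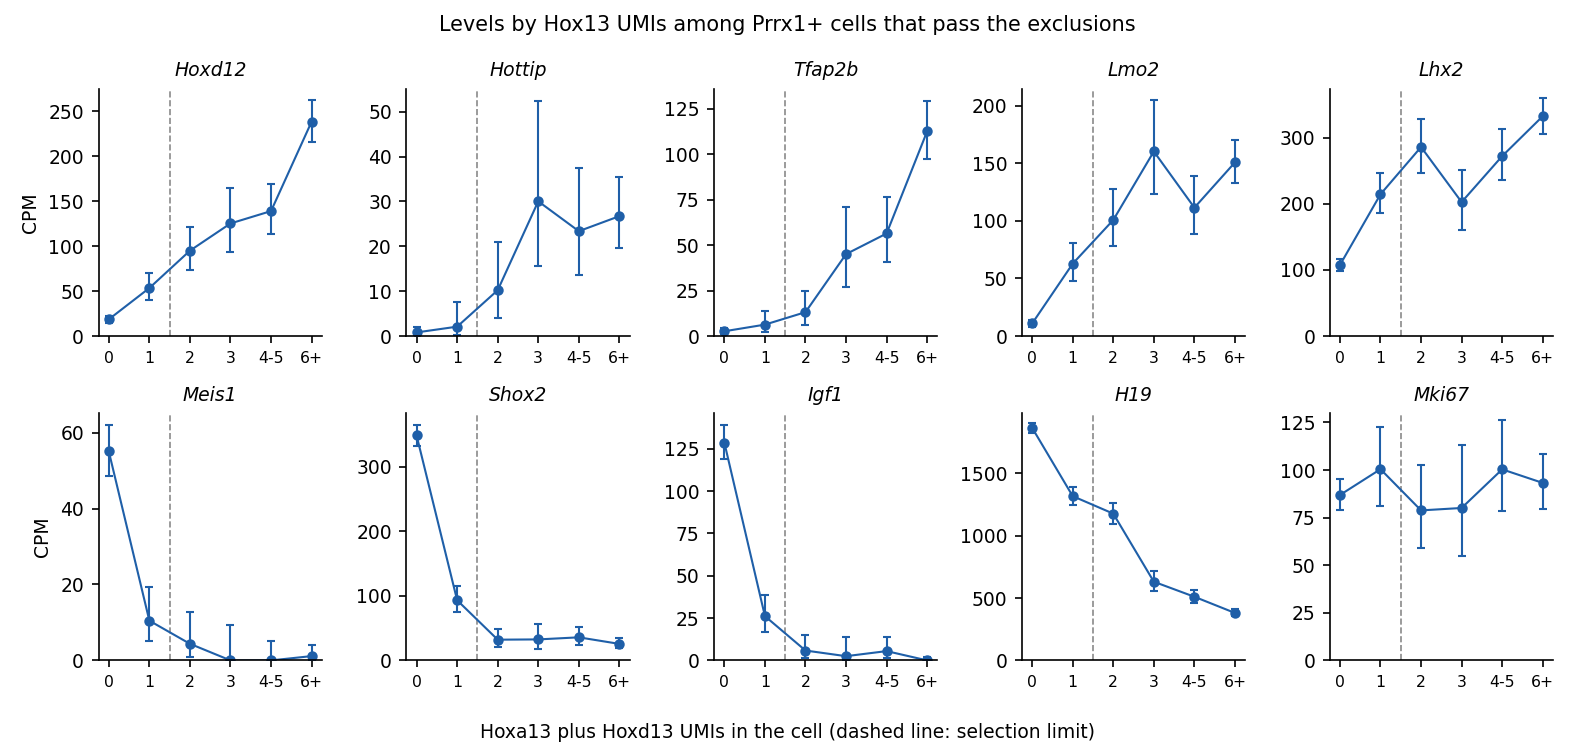
CPM (y axes, each from 0) of 10 genes in Prrx1+ cells that pass the exclusions, grouped by Hoxa13 plus Hoxd13 UMIs (x axis), with exact 95% Poisson intervals; the dashed line is the limit of the selection. Meis1, Shox2 and Igf1 drop mostly between 0 and 2 UMIs, while Hoxd12 and Tfap2b keep climbing to the last group and Mki67 stays level.

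The distal cells were not uniform among themselves. In 326 of them thinned to 4000 UMIs, the variance of a gene over cells divided by its mean (the Fano factor, 1 for pure counting noise) had a median of 1.03 and a 95th percentile of 1.29 over 7371 genes with a mean of at least 0.05. H19 had the highest value, 8.83, being found in 218 cells with up to 33 UMIs, followed by the nuclear noncoding RNA Malat1 at 7.00, a gene found in nearly every cell. Klhl7 reached 4.94 and was found in 63 cells with up to 18 UMIs. Meis2 reached 3.9 from only 8 cells with up to 7 UMIs, and Aldh1a2 3.08 from 39 cells with up to 9. Cdkn1c (3.87), Id1 (3.03), Id3 (3.01), Pmaip1 (2.82) and Msx1 (2.26) also stood above the 95th percentile. Several genes that mark the set were above the 95th percentile too, with Prrx1 at 1.87, Tfap2b at 1.61, Hoxd12 at 1.52 and Lhx2 at 1.46. Lhx2 and Msx1 were found together in 211 of the 330 cells, Lhx2 alone in 42, Msx1 alone in 35 and neither in 42.

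Sox9, the master regulator of chondrogenesis, was used to split the set after the data had been seen. The 182 cells with at least 2 Sox9 UMIs (median depth 11958) were set against the 83 with none (10577). Of 9046 measured genes 127 were higher (1.4%) and 57 lower (0.63%). Aldh1a2 led with 142 UMIs against 9, 61.9 against 9.85 CPM, 6.28-fold higher (3.22 to 14.0), followed by the kinase gene Sgk1 (2.91-fold, 1.80 to 4.99) and the mitotic gene Cdca2 (2.76-fold, 1.63 to 5.0). Tuba1c, Creb3l2, Stmn2, Sall1 and Tmem30a followed at 2.16-fold to 2.3-fold, with 94 against 17 UMIs for Sall1. Lower in Sox9-rich cells were Dlk1 (2.99-fold, 2.17 to 4.12), Bok (2.33-fold, 1.64 to 3.31), Greb1 (2.11-fold), Col3a1 (2.10-fold) and Wif1 (2.01-fold). Shh was lower too, at 10 against 14 UMIs (3.52-fold, 1.45 to 8.85). Hoxd12, H19, Evx1 and Tfap2b were near even, at log2 ratios of -0.04, 0.06, -0.19 and 0.06.

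Few genes passed the size rule between cells with and without a Hoxa13 UMI. Hoxa13 was found in 24.8% of thinned distal cells with a Fano factor of 0.98, close to counting noise. Cells without a UMI may have missed it, so the split cannot show that both kinds are alike. The 174 cells with Hoxa13 (median depth 12242) and the 156 without (10552) had 60 genes higher (0.637%) and 39 lower (0.414%) among 9416. This split too was chosen after the data had been seen. Dlx2 (2.16-fold, 1.39 to 3.46), Rprm (2.09-fold, 1.65 to 2.66) and Zic2 (2.07-fold, 1.5 to 2.88) led the higher genes with at least 100 UMIs, and Foxo1 (2.02-fold, 1.34 to 3.06) was the 1 such gene that was lower. Zic2 belongs to the anterior list, and so does Pax9, which was higher too (18 against 2 UMIs, ratio 7.07, interval 1.69 to 62.8). Of 6 measured genes of that list 3 were higher and 0 lower, with a median log2 ratio of 0.94. Asb4 was at 1.78-fold, Lhx2 at 1.11-fold and Hoxd12 1.45-fold lower. Under the rule, cells without Hoxa13 had to hold at least 2 UMIs of the adjacent Hoxd13, so the value of Hoxd12 is a description. In the contrast set out for this comparison, 13 cells with only Hoxa13 against the 156 with only Hoxd13, 167 of 7806 genes were higher (2.14%) and 71 lower (0.91%). Hoxd12 summed to 5 UMIs against 384, 36.1 against 221 CPM, 6.14-fold lower (2.61 to 19), and Hoxd11 was 2.49-fold lower (1.29 to 5.49). These 13 cells were set apart by holding no UMI of the adjacent Hoxd13, so both values are a description. Tfap2b was at 0 in them against 150 UMIs, at least 4.0-fold lower, and Msi2, an RNA-binding protein gene, held 3 UMIs against 278 (ratio 7.41, interval 2.51 to 36.1). Col1a2 was 3.50-fold higher (2.3 to 5.19), Asb4 3.10-fold (2.40 to 3.97) and H19 2.71-fold (2.35 to 3.11). Crabp1, which binds retinoic acid, led at 3.70-fold higher (2.36 to 5.65), but the direction turned when the classes were set on thinned counts, with a log2 ratio of -0.65 over 8 and 122 cells.

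The same rule was applied to the later libraries. At E13.5 it took 166 of 2816 kept cells (5.89%, 5.05 to 6.83). The E15.5 library gave 95 of 2598 (3.66%, 2.97 to 4.45), and the E18.5 library 22 of 1904 (1.16%, 0.725 to 1.74). The shares are set by the rule as well as by the tissue, since 257, 289 and 41 cells with Hox13 UMIs were left out as precartilage at these stages and 19 at E11.5. Median depth of the chosen cells fell with stage, from 6628.5 UMIs at E13.5 through 5904 to 5632.5 at the last. Hoxd13, which chose the cells, stood at 388, 392, 385.5 and 349 CPM, while Hoxa13 was found in 36 of 166, 17 of 95 and 4 of 22 cells. Stage and library cannot be told apart, and cells of the rule at a later stage need not descend from those at E11.5.

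Most distal outgrowth genes were lower at E13.5 than at E11.5. Of 10207 measured genes 1258 were higher at E13.5 (12.3%) and 1803 lower (17.7%), but the median gene had moved by -0.33 on the log2 scale. Relative to that median 1686 were higher (16.5%) and 870 lower (8.52%), and the folds that follow are relative to it. Of 19 distal outgrowth genes 11 were lower and 0 higher. Lhx2 went from 281 to 44.7 CPM, Lmo2 from 131 to 8.44, Lhx9 from 189 to 32.9 and Sall4 from 30.9 to 3.37. Msx1, at 392 and 174 CPM, did not pass the limit relative to the median gene. Evx1 went from 170 UMIs to 2 (43.1 to 1.69 CPM, a ratio of 20.3, interval 5.54 to 169) and Evx1os and Grem1 from 156 and 46 UMIs to 0. Shh went from 31 UMIs to 0. Hoxd12 (183 and 104 CPM), Hoxd11 (157 and 84.4 CPM) and Wnt5a (136 and 108 CPM) did not pass it either, and the difference of Wnt5a was about that of the median gene. Zic5 (63.6 to 0.844 CPM), Pmaip1 (379.8 to 5.91 CPM, 51.2-fold, 24.8 to 127) and Lix1 (99.6 to 1.69 CPM) were among the genes with the widest drops. Of 20 G2/M genes 13 were lower, and of 20 S phase genes 6.

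Genes that were higher at E13.5 have to be read beside free RNA. All 12 measured cartilage matrix genes were higher, but 106 endothelial cells of the same library (median depth 10689 UMIs) held them too. Matn1 stood at 186 CPM in the cells of the rule and 209 in endothelial cells, Lect1 at 121 and 142, and Acan at 60.7 and 70.6, so those levels are not above background. Mia, another cartilage gene, stood at 218 CPM beside 116. Col2a1, a rule gene, was at 686 and 694 CPM. Of the 12 genes only Matn4 exceeded the endothelial level by the size rule, at 308 against 87.6 CPM. Over all genes, 547 of the 1686 higher genes did. This background reading holds for E13.5 only. At E15.5 Col2a1 stood at 2163 against 944 CPM in endothelial cells and Matn1 at 537 against 294. At E18.5, from 22 cells, Col2a1 stood at 10771 against 91.3 CPM and Matn1 at 2442 against 17.1. Chodl, a lectin-like membrane protein, went from 0 UMIs at E11.5 to 227 at E13.5, 192 CPM beside 0.811 in endothelial cells, at least 316-fold higher against a floor of 3 counts summed over the E11.5 cells. Egfl6 (3 to 105 UMIs) and Ebf2 (11 to 102 UMIs) also stood far above endothelial cells, at 88.6 against 3.24 CPM and 86.1 against 0. Connective tissue genes were the clearest group: 18 of 23 were higher and 16 of these exceeded endothelial cells. Col3a1 went from 70.2 to 596 CPM (26.0 in endothelial cells), Col1a2 from 79.1 to 421 (36.5), Ogn from 0 to 79.3 (0.811) and Osr1 from 1.27 to 49.8 (0). Dkk2, a WNT inhibitor, was 40.3-fold higher (24.0 to 72.2). Gdf5, a joint gene, went from 7.35 to 100.4 CPM beside 3.24 in endothelial cells. H19 reached 1725 CPM at E13.5 and 2937 at E15.5, against 2034 and 2299 in endothelial cells. Endothelial cells already held 1832 CPM of H19 at E11.5, against 604 in the distal cells. They therefore give no free RNA level for this gene.

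**Figure D5:**
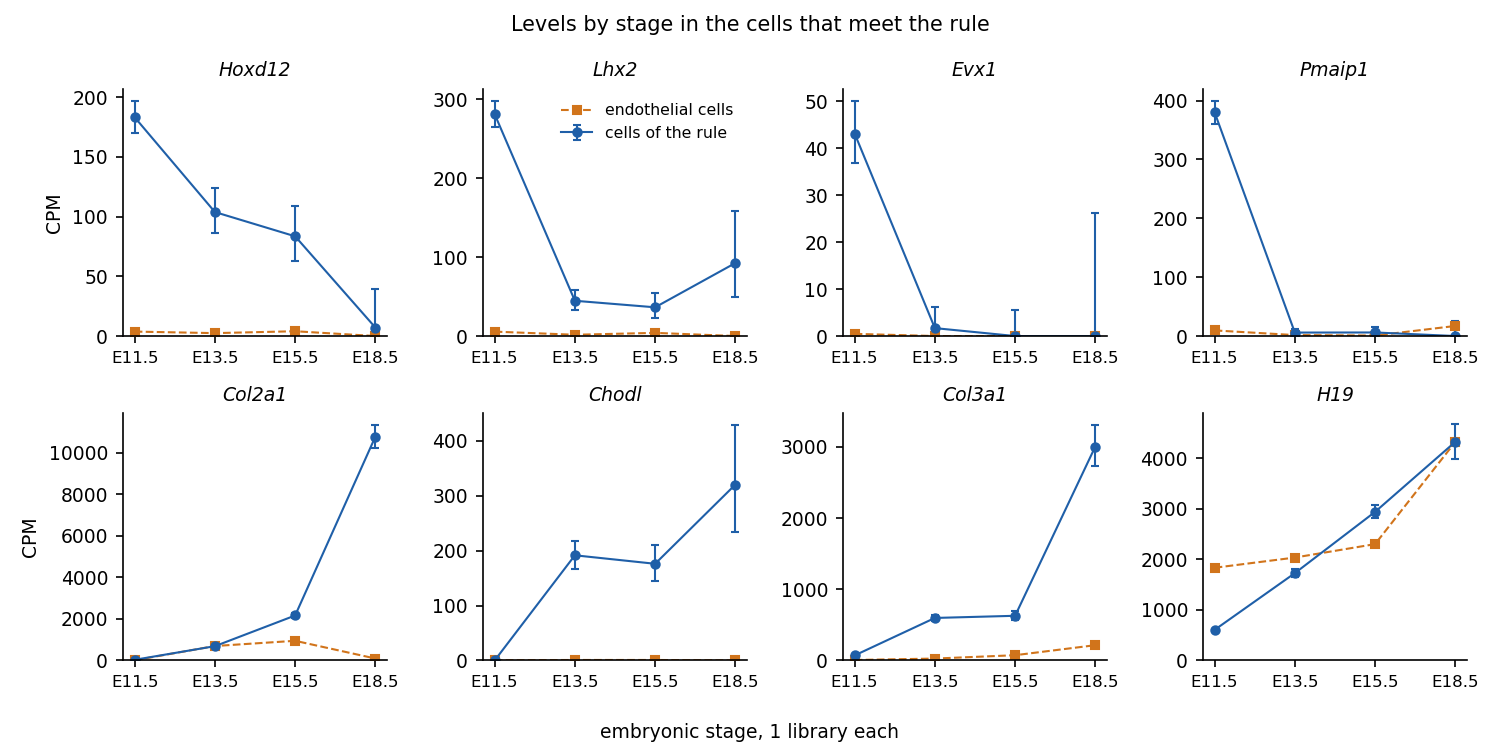
CPM (y axes, each from 0) of 8 genes by stage in the cells that meet the rule (blue, exact 95% Poisson intervals) and in endothelial cells of the same library (orange squares). Lhx2, Evx1 and Pmaip1 drop after E11.5 and Chodl appears at E13.5. Col2a1 lies at the endothelial level at E13.5 and above it later, at 2163 against 944 CPM at E15.5 and 10771 against 91.3 at E18.5. The E18.5 values rest on 22 cells.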

How the data were processed

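The authors deposited raw UMI counts per gene and cell barcode for 4 libraries (10x Chromium 3' version 2, mm10, per the submitters' processing notes, which name Cell Ranger without a version and Seurat 2.3.4). Barcodes needed 200 genes or more and mitochondrial UMIs of 10% or less to be kept. The selection, the 33 gene lists and the comparisons were chosen with earlier results of these data known. UMIs were summed per cell set and compared as ratios of CPM with exact conditional binomial 95% intervals (Python 3.11.15, numpy 2.4.6, scipy 1.17.1, pandas 2.3.3). The size rule was tested on simulated set sums drawn as independent Poisson counts. Those had no spread between cells, so the test cannot speak to calls that rest on few cells. The 9 genes of the rule were left out of calls. Named genes were the given markers, the 15 highest and 15 lowest ratios among called genes with at least 100 UMIs (8 each way for other comparisons), list members past the limit and HoxA and HoxD genes; a few genes that this rule names are not reported here. Shares of cells were taken after thinning to 4000 UMIs (seed 11). Gene positions are GENCODE vM21 on GRCm38. Doublets were kept and no caller was run. The endothelial reference, the Sox9 split, the Hoxa13 split and genes named for E13.5 against that reference were chosen after the data were seen. Alternatives changed the Hox13 limit, the comparison set, depth, fold, UMI minimum and scaling.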

Additional observations from a re-analysis of the deposited data

How the results depend on the processing

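The selection gave 202 cells with at least 4 Hox13 UMIs, 161 with at least 1 UMI of each gene and 181 after thinning to 4000 UMIs, against 330. The count of genes lower than in the other Prrx1+ cells (919) was 534 with the same exclusions, 571 with these and no Hox13 UMI, 548 after thinning, 415 with Hoxa13 of at least 2 alone and 403 with at least 100 UMIs in the pair. The count of higher genes (146) was 62 with at least 100 UMIs and 322 at a fold of 1.5. For cells with only Hoxa13, 167 higher and 71 lower genes became 72 and 13 when the classes were set on thinned counts, and Crabp1 turned to -0.65. The thinned class held 8 cells, which need not be among the 13 set on raw counts. At a fold of 1.5, 110 genes were lower. Centring took the genes lower at E13.5 from 1803 to 870. Between cells with 4 to 5 Hox13 UMIs and with none, the log2 ratio of Lhx2 went from 1.34 to 1.09 and that of H19 from -1.87 to -2.41 when groups were set on thinned counts. Of the single-gene values against the other Prrx1+ cells under all alternatives, 1176 stayed within the counting interval of the first value, 238 moved outside it and 0 called values reversed. No paired analysis was possible because each stage is 1 library without replicates. Intervals cover counting error only.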
